A study of Mus musculus with 4 samples.

Results

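The miR-30 family was followed on both arms of its hairpins in small RNA of MIN6 cells and of the exosomes that these cells release. MIN6 is a mouse insulinoma line that makes insulin, and the exosomes were collected from its conditioned medium by ultracentrifugation. The 10 members were taken by name from the table of 1915 mature mouse miRNAs, as the 5 miRNAs of the 5p arm (mmu-miR-30a-5p, mmu-miR-30b-5p, mmu-miR-30c-5p, mmu-miR-30d-5p and mmu-miR-30e-5p) and the 5 of the 3p arm (mmu-miR-30a-3p, mmu-miR-30b-3p, mmu-miR-30c-2-3p, mmu-miR-30d-3p and mmu-miR-30e-3p). The mouse prefix mmu is left out from here on. All 10 were among the 438 miRNAs that passed the filter on low counts, and 7 had a count in every library. There were 2 libraries of the cells and 2 of the exosomes. Neither group carried a treatment or a genetic change, and the labels give the cells as pancreatic beta cells of insulinoma origin, grown in medium with exosome-depleted fetal bovine serum. The medium for the exosomes was pooled over several flasks of the line. Nothing in the sources says that the libraries of a group came from separate cultures, so the p-values measure the spread between these libraries, which may be technical.

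A miRNA hairpin is cut into a short duplex, of which an Argonaute protein keeps one strand as guide while the other is mostly degraded. The strand from the left side of the hairpin is called 5p and that from the right side 3p, and the bases 2 to 8 of the guide, the seed, pair with target mRNAs. The 5p arms of the miR-30 family share one seed and have been studied in insulin-producing cells and in epithelial cells.

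RefSeq sequences (GRCm38.p6) were matched for 6 of the 10 members. They are shown because the arm, the seed and single bases decide how the counts below can be compared. Capitals mark the seed, and each sequence runs 5′ to 3′.
miR-30a-5p: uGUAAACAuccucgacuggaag
miR-30e-5p: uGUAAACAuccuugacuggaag
miR-30c-5p: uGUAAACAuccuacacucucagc
miR-30a-3p: cUUUCAGUcggauguuugcagc
miR-30e-3p: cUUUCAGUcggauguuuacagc
miR-30c-2-3p: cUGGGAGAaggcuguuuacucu
miR-30c-1-3p: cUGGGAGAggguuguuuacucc

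The last sequence belongs to a miR-30 miRNA outside the 10 members, the 3p arm of the other hairpin that makes miR-30c-5p. The 3 printed 5p arms share the seed GUAAACA, which among the listed miRNAs with a RefSeq sequence is also held by miR-384-5p. The printed 3p arms fall into 2 seed groups, UUUCAGU for miR-30a-3p and miR-30e-3p and UGGGAGA for both miR-30c 3p arms. Counted from 1 at the 5′ end, miR-30a-5p and miR-30e-5p differ by the substitution C13U alone, and miR-30a-3p and miR-30e-3p by G18A alone. Counts of these near-identical pairs could be split or shared by the authors' alignment, so the division of reads between miR-30a and miR-30e is uncertain.

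The hairpins of miR-30a and miR-30e carry both arms with the major arm of the cells on the 3p side, and they are printed with the mature arms in capitals.
Mir30a, chr1:23272269-23272339, plus strand: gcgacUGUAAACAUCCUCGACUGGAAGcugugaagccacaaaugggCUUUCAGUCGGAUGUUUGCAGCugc
Mir30e, chr4:120772606-120772697, minus strand: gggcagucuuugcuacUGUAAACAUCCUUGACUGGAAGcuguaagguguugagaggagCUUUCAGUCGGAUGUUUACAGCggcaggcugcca

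By the GENCODE vM21 annotation on GRCm38, no other gene overlaps Mir30a. Its neighbour Mir30c-2 (chr1:23291701-23291784, plus strand) starts 19432 bases away in an exon of the long intergenic non-coding RNA Gm27028. Mir30e and Mir30c-1 (chr4:120769534-120769622, minus strand) start 3072 bases apart in introns of Nfyc, which encodes a subunit of the transcription factor NF-Y. Mir30f is annotated on the strand opposite to Mir30e, and the mature miR-30f had 1 read in the first cell library and none in the other 3 libraries.

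Totals of mature counts were 2930217 and 2564068 for cells, against 47447 and 31409 for exosomes. A count of 3 was taken as the floor, which is 1.02 and 1.17 RPM, the count scaled to the sum of mature counts of its library, in cells but 63.2 and 95.5 RPM in exosomes. Intervals given here are exact 95% binomial intervals and, like the floor, cover counting error only. Counts give shares of a library, so the number of vesicles and the RNA per vesicle cannot be told apart. The quality of cell and exosome libraries was checked on different instruments according to the study's methods, so this step cannot be told apart from the group. In the edgeR comparison described below, 29.5% of the 438 tested miRNAs were lower in exosomes and 23.7% were higher. Of the beta-cell miRNAs, 9 of 10 were tested, of which 6 were lower in exosomes and none higher, and their summed level was 65577 to 65868 RPM in cells and 14614 to 34734 RPM in exosomes. The miRNAs of blood cells moved the other way, with all 5 tested of 6 higher in exosomes, a summed level of 2.73 to 3.12 RPM in cells, where 3 of the 6 were at 0 in both libraries, and 2101 to 7503 RPM in exosomes. The liver miRNA miR-122-5p was at 4.44 and 8.19 RPM in cells and 1665 and 1974 RPM in exosomes, and the acinar, duct or fibroblast list, with 3 of 5 tested and all 3 higher, had 9.36 to 14.3 RPM in cells and 1307 to 1401 RPM in exosomes. Of the 3 muscle miRNAs 1 was tested and not called. The part of these lists in the miR-30 results was not tested.

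In cells the family took 0.612% and 0.645% of all mature counts, and in exosomes 0.242% (interval 0.20 to 0.291) and 0.105% (0.0723 to 0.148). The groups did not overlap, and the mean share was 3.62 times as high in cells. The 3p members held 0.443% and 0.469% in cells and 0.139% and 0.0764% in exosomes, and the 5p members 0.169% and 0.176% in cells and 0.103% and 0.0287% in exosomes. The exact two-sided permutation test gave p = 0.333 for the whole family and for each arm, the smallest value that 2 libraries against 2 allow.

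The counts of exosomes and cells were compared in edgeR (quasi-likelihood test) after TMM scaling, and p-values were adjusted over all 438 miRNAs by the Benjamini-Hochberg procedure. In this comparison 6 of the 10 members were lower in exosomes and none was higher. Among all tested miRNAs 29.5% were lower and 23.7% were higher. The 6 were miR-30b-5p and miR-30c-5p of the 5p arm and miR-30a-3p, miR-30b-3p, miR-30c-2-3p and miR-30e-3p of the 3p arm. By unadjusted p under 0.05 in the same test 7 members were lower and none higher, against 35.8% and 26.9% of all tested miRNAs. DESeq2 called 7 members lower and none higher, against 30.8% and 26.5%. With edgeR's exactTest, called at a 2-fold change and unadjusted p under 0.05, 8 members were lower and none higher, against 39.5% of all tested miRNAs lower. The median log2 fold change of the members, exosomes minus cells, was -2.45, against -0.75 for all tested miRNAs. The median was -1.93 for the 5p members and -2.83 for the 3p members. Since the members passed the filter through counts in cells, these medians are a description.

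The scaling sets the zero of these changes. The median over all tested miRNAs was -0.75 with TMM, -0.83 with RLE, -0.07 with upper quartile scaling and 0.61 with library size alone, while the distance of the members' median from it stayed between -1.71 and -1.69. With library size alone 2 members were lower and 1 was higher, against 6.85% and 31.3% of all tested miRNAs, and 137 of all miRNAs were higher and 30 lower, or 82.0% of the calls higher against 44.6% with TMM (104 higher, 129 lower). With upper quartile scaling 4 members were lower, against 21.7% of all tested miRNAs, and 57.6% of all calls were higher. In all 4 scalings the log2 fold changes of the same 8 members were below 0, and the fitted values of miR-30a-5p and miR-30e-5p above it.

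**Figure D1:**
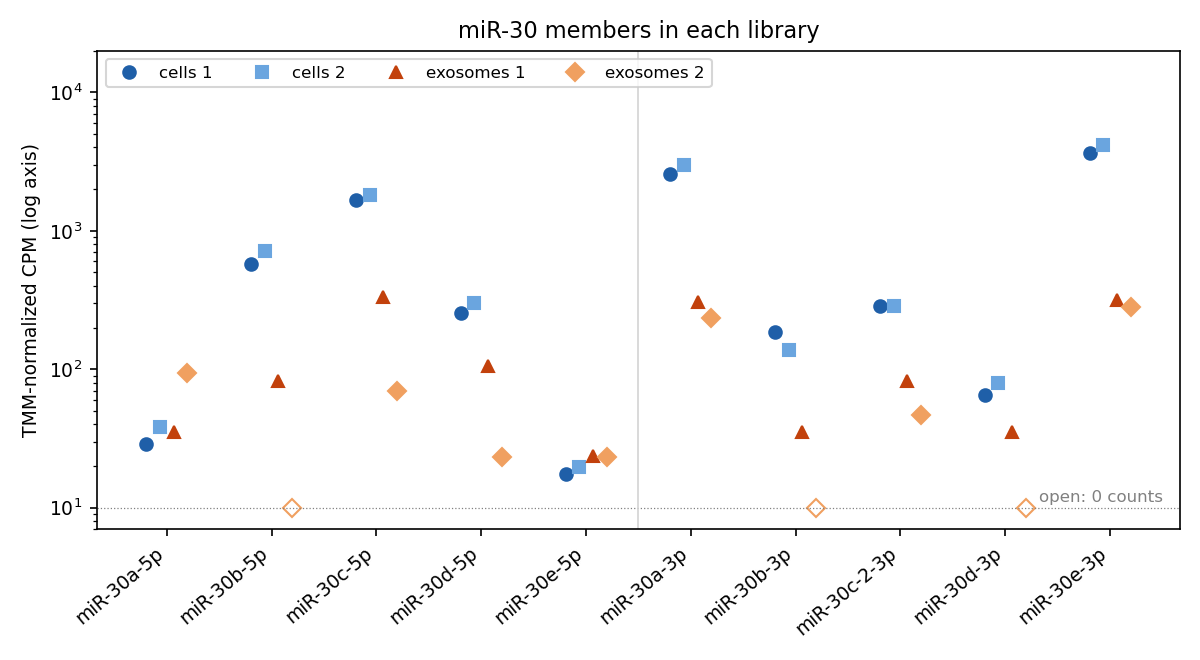
TMM-normalized CPM (log axis) of the 10 miR-30 members in each of the 4 libraries, 5p arm on the left and 3p arm on the right. Open symbols at the dotted line stand for 0 counts, and for 8 members the exosome points lie below the cell points.

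On the 3p arm, miR-30e-3p was the most abundant member, ranked 36 among all miRNAs in cells. Its counts were 6992 and 6531 in cells and 27 and 12 in exosomes, or 3620 and 4161 normalized CPM in cells and 318 and 279 in exosomes. The groups lay far apart and each was tight. At an unchanged level under TMM scaling, 330 and 167 reads would have been counted in the exosome libraries. The log2 fold change was -3.69 (SE 0.40, adjusted p = 0.00715 by edgeR), the lowest adjusted p of the family.

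miR-30a-3p, which differs from it by a single base, was also lower. It had 4967 and 4705 counts in cells and 26 and 10 in exosomes, or 2571 and 2998 normalized CPM in cells and 307 and 233 in exosomes. The log2 fold change was -3.35 (SE 0.41, edgeR adjusted p = 0.00797). Together these 3p arms made up most of the family in cells, with miR-30e-3p at 53.8% and 54.3% and miR-30a-3p at 38.2% and 39.1% of the 3p reads.

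miR-30c-2-3p, a minor arm of the miR-30c-2 hairpin in cells, had 552 and 450 counts in cells and 7 and 2 in exosomes, or 286 and 287 normalized CPM against 82.5 and 46.6. It was lower in exosomes by a log2 fold change of -2.07 (SE 0.44, edgeR adjusted p = 0.0236). It did not pass with upper quartile scaling (edgeR adjusted p = 0.0672) or with library size alone (edgeR adjusted p = 0.340). miR-30b-3p had 356 and 217 counts in cells and 3 and 0 in exosomes. Neither exosome count exceeded the floor, which was 35.4 and 69.9 in TMM-normalized CPM. Set against the mean of these floors, its exosome mean was at least 3.07-fold lower than its cell mean (edgeR adjusted p = 0.0468). This call was lost with upper quartile scaling (edgeR adjusted p = 0.0819) and with library size alone (edgeR adjusted p = 0.264). By RPM miR-30b-3p was at 121 and 84.6 in cells, against an exosome floor of 63.2 and 95.5. miR-30d-3p had 126 and 124 counts in cells and 3 and 0 in exosomes, and did not pass the test (edgeR adjusted p = 0.156). Its cell mean was 1.37 times the mean of the exosome floors in TMM-normalized CPM. Its 65.2 normalized CPM in the first cell library, however, lay under the floor of 69.9 in the second exosome library. By RPM its 43.0 and 48.4 in cells lay under the exosome floor as well. No bound is therefore given for it.

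On the 5p arm, miR-30c-5p held most of the reads in cells, 65.6% and 62.9%. Its counts were 3240 and 2847 in cells and 28 and 3 in exosomes, or 1677 and 1814 normalized CPM in cells and 330 and 69.9 in exosomes. The cell libraries were close to each other and the exosome libraries were not, with the second exosome library at the floor. The log2 fold change was -3.03 (SE 0.74, edgeR adjusted p = 0.0318). With library size alone miR-30c-5p did not pass (edgeR adjusted p = 0.188).

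miR-30b-5p had 1117 and 1113 counts in cells and 7 and 0 in exosomes, with a log2 fold change of -3.68 (SE 0.95, edgeR adjusted p = 0.0355). The second exosome library held no read of it, where 27.6 would have been counted at an unchanged level under TMM scaling. Scaled by library size alone, miR-30b-5p did not pass (edgeR adjusted p = 0.131). miR-30d-5p had 492 and 472 counts in cells and 9 and 1 in exosomes. Its log2 fold change of -1.93 (SE 0.64) did not pass the test (edgeR adjusted p = 0.0617), although its normalized CPM of 106 and 23.3 in exosomes lay below the 255 and 301 in cells. It gained the call with RLE (edgeR adjusted p = 0.0480), with no filter (0.0114), in DESeq2 (0.0268) and by exactTest, so it lies near the threshold.

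The 5p partners of the abundant 3p arms were the scarcest members in cells. miR-30a-5p had 56 and 60 counts in cells and 3 and 4 in exosomes, or 29.0 and 38.2 normalized CPM against 35.4 and 93.1. By normalized CPM the groups overlapped, and the log2 fold change of 0.77 (SE 0.61) did not pass the test (edgeR adjusted p = 0.328). miR-30e-5p had 34 and 31 counts in cells and 2 and 1 in exosomes. Each exosome count was under the floor, so no fold is drawn from them, and a difference was not detectable at this depth (edgeR adjusted p = 0.728).

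By normalized CPM the exosomes were lower with no overlap between the groups for 8 of the 10 members, against 51.8% of all tested miRNAs. The members outside this count were miR-30a-5p and miR-30e-5p. miR-30e-5p was higher in exosomes with no overlap, as 33.3% of all tested miRNAs were, on counts under the floor. By RPM, which carries no TMM factor, the count was 6 of 10, against 33.8% of all tested miRNAs. In the other direction, miR-30a-5p had 19.1 and 23.4 RPM in cells and 63.2 and 127 in exosomes. miR-30e-5p had 11.6 and 12.1 RPM in cells and 42.2 and 31.8 in exosomes. Both were thus higher in exosomes with no overlap by RPM, on exosome counts of 4 or fewer.

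**Figure D2:**
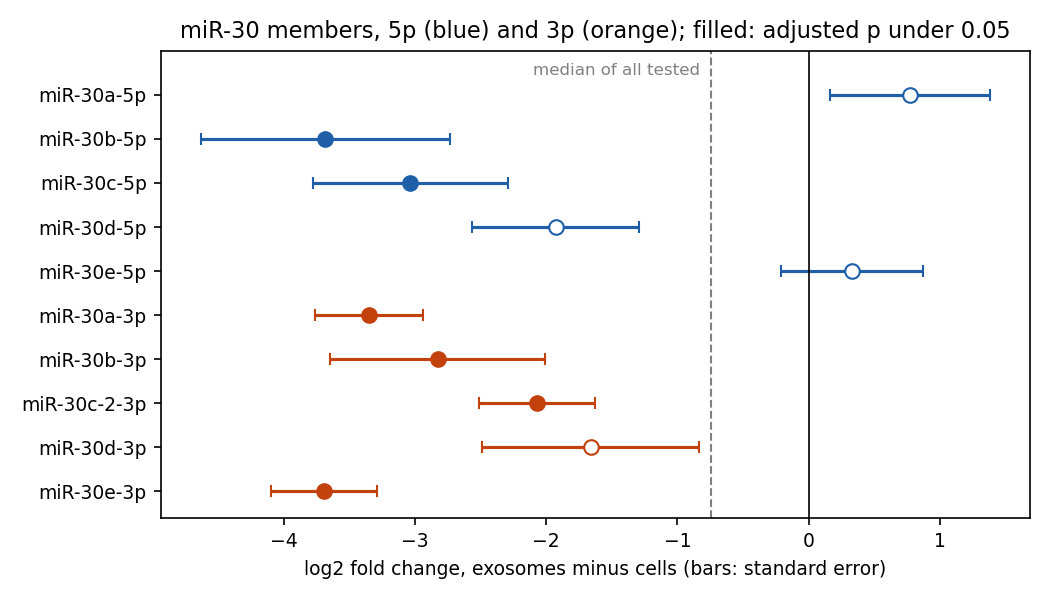
Log2 fold change of each miR-30 member, exosomes minus cells, with its standard error, from edgeR's quasi-likelihood test on 2 libraries a group. Filled symbols passed at an adjusted p under 0.05, the dashed line is the median of -0.75 over all 438 tested miRNAs, and miR-30a-5p and miR-30e-5p lie to the right of 0.

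The 5p to 3p ratio within each hairpin was compared next, since both arms are counted in the same library and their ratio does not rest on the scaling. In cells the hairpins differed in the arm that held most reads. For mir-30a the 5p to 3p ratio was 0.0113 and 0.0128, or 88.7 and 78.4 reads of 3p for each read of 5p, and for mir-30e it was 0.00486 and 0.00475, or 206 and 211 reads of 3p for each of 5p. The other hairpins were read mainly from the 5p arm, with ratios of 3.14 and 5.13 for mir-30b, 5.87 and 6.33 for mir-30c-2, and 3.90 and 3.81 for mir-30d. The value of mir-30c-2 uses all reads of miR-30c-5p, which mir-30c-1 also makes, and how they divide between these hairpins is unknown. With the 3p reads of both miR-30c hairpins summed, the ratio was 3.85 and 4.23 in cells. The family as a whole had 27.5% and 27.3% of its reads on the 5p arm in cells. In exosomes it had 42.6% (49 of 115 reads, interval 33.4 to 52.2) and 27.3% (9 of 33, 13.3 to 45.5), so the groups overlapped.

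In exosomes the ratio of mir-30a was 0.115 (3 reads to 26) and 0.400 (4 to 10). Its 5p share was 1.11% and 1.26% in cells and 10.3% (interval 2.19 to 27.4) and 28.6% (8.39 to 58.1) in exosomes, so the groups did not overlap and neither exosome interval reached the cell values. At the share of the cells 0.344 and 0.166 reads of miR-30a-5p would have been counted in the exosome libraries, where 3 and 4 were. The log2 fold change of 5p exceeded that of 3p by 4.12 (SE 0.74), with an adjusted p = 0.00409 by edgeR's diffSpliceDGE over 100 hairpins with both arms tested.

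mir-30e moved the same way. Its ratio in exosomes was 0.0741 (2 reads to 27) and 0.0833 (1 to 12), and its 5p share was 0.484% and 0.472% in cells and 6.90% (interval 0.846 to 22.8) and 7.69% (0.195 to 36.0) in exosomes. The counting interval of the ratio was 0.00854 to 0.295 in the first and 0.00195 to 0.563 in the second exosome library. The interval of the second exosome library reached the cell values, and that of the first did not. At the share of the cells 0.139 and 0.0622 reads would have been counted, where 2 and 1 were. The fitted difference between arms was 4.02 (SE 0.88, edgeR adjusted p = 0.00900), which rests on 5p counts under the floor, so that its size is uncertain. Summed over both hairpins, which leaves out how reads were divided between miR-30a and miR-30e, the 5p share was 0.747% and 0.803% in cells and 8.62% (interval 2.86 to 19.0) and 18.5% (6.30 to 38.1) in exosomes. Any read counted for both miRNAs would enter these sums repeatedly, and the intervals would then be too narrow. The summed shift rests on 5 reads of the 5p arm in each exosome library, and the levels of miR-30a-5p and miR-30e-5p themselves did not pass the test.

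The remaining hairpins did not pass the test of the arm difference. The ratio in exosomes was 2.33 for mir-30b in the first library, with no reads in the second, 4.00 and 1.5 for mir-30c-2, and 3.00 for mir-30d in the first library, with a single 5p read and no 3p read in the second. The arm differences were -0.86 (SE 1.43, edgeR adjusted p = 0.663) for mir-30b, -0.97 (SE 0.89, edgeR adjusted p = 0.494) for mir-30c-2 and -0.27 (SE 1.20, edgeR adjusted p = 0.845) for mir-30d. With standard errors of this size, changes of several fold either way in these hairpins were not detectable at this depth.

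**Figure D3:**
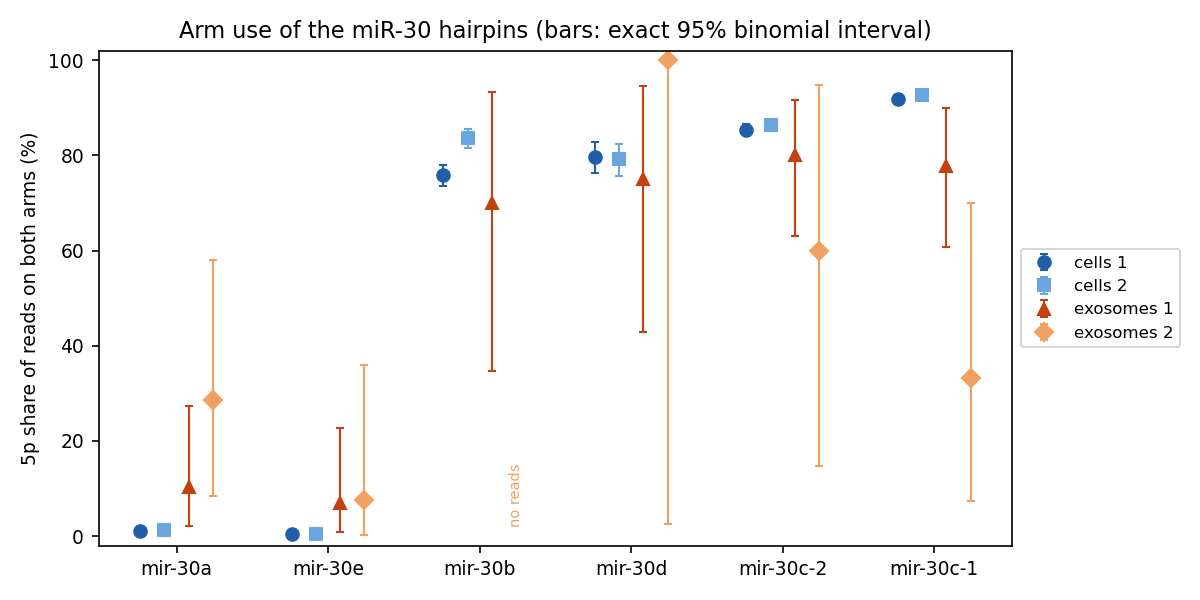
Share of the reads on both arms that were on the 5p arm (%), for each miR-30 hairpin and library, with exact 95% binomial intervals. mir-30c-1 and mir-30c-2 are each drawn with all reads of miR-30c-5p. In cells mir-30a and mir-30e lie near 1% and the others above 75%, and for mir-30a and mir-30e the exosome points lie above the cell points.

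Among the 100 hairpins, 17% had the 5p arm up relative to the 3p arm in exosomes and 11% the 3p arm up. The miR-30 hairpins gave 2 of 5 with 5p up and none with 3p up (by unadjusted p under 0.05 also 2 and none, against 21% and 14%, and by limma voom with diffSplice 2 and none, against 20% and 12%). Ordered from the highest difference, mir-30a ranked 9 and mir-30e 11. Both belong to the 19 hairpins whose 5p share in cells was under 5%. Of these 19, 16 had a difference above 0 and 7 were called with 5p up, and their median was 2.88 against 0.60 over all 100.

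**Figure D4:**
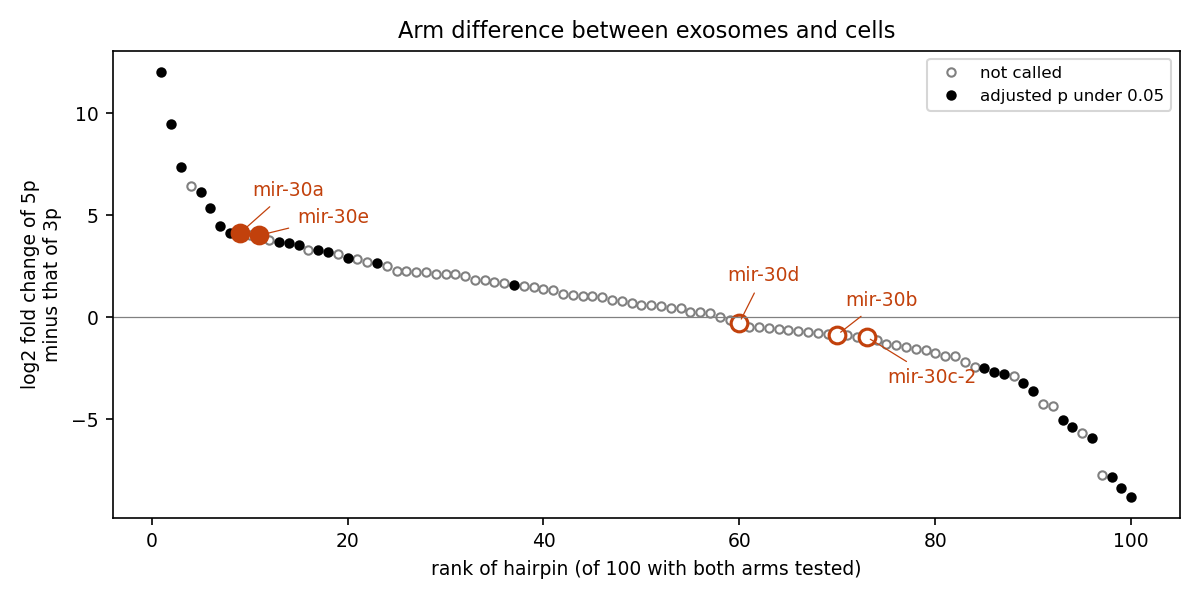
Difference between the log2 fold changes of the 5p and the 3p arm, exosomes minus cells, for the 100 hairpins with both arms tested, ordered from high to low. Filled symbols passed at an adjusted p under 0.05, and the miR-30 hairpins are in orange, with mir-30a at rank 9 and mir-30e at rank 11.

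miR-30c-5p can come from mir-30c-1 or mir-30c-2, and its reads were counted at both hairpins (3239 at mir-30c-1 and 3208 at mir-30c-2 of 3240 in the first cell library). The 3p arm of mir-30c-1 is distinct, and the substitutions from miR-30c-1-3p to miR-30c-2-3p are G9A, U12C and C22U. miR-30c-1-3p had 289 and 223 counts in cells and 8 and 6 in exosomes, or 150 and 142 normalized CPM against 94.3 and 140. Its log2 fold change was -0.37 (SE 0.39, edgeR adjusted p = 0.455), and the value was above 0 when only library size was used (0.95) and under upper quartile scaling (0.34). Set against miR-30c-1-3p instead of miR-30c-2-3p, a pairing added after the data were seen, miR-30c-5p gave an arm difference of -2.67 (SE 0.78, edgeR adjusted p = 0.0291), with the 3p arm up. This value too takes all reads of miR-30c-5p as those of 1 hairpin. The difference between both 3p arms themselves was not tested.

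The letters GGAG, GGCU and UGCAU have been named as short motifs in exosomal miRNAs, and they were searched in the RefSeq mature sequences on the strand of the miRNA. GGAG, which both miR-30c 3p arms hold inside the seed, occurs in 14.2% of the 1623 listed miRNAs searched. GGCU occurs in 13.1% and, of the 6 members searched, in miR-30c-2-3p alone, and UGCAU occurs in 2.16% and in none of these 6.

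miR-384-5p, with the 5p seed of the family but of another hairpin, had 2349 and 2416 counts in cells and 7 and 2 in exosomes. Its log2 fold change was -4.34 (SE 0.50, edgeR adjusted p = 0.00715). The miRNAs outside the family nearest to miR-30c-5p by Euclidean distance over the 4 libraries, in log2 of normalized CPM plus 1, were miR-29b-3p (0.74), miR-429-3p (0.79) and miR-106b-3p (0.88). Those nearest to miR-30e-3p were miR-7a-1-3p (0.77), miR-3102-3p (1.01) and miR-99b-5p (1.21).

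These calls changed when a library was left out, which also leaves a single library in its group. With either cell library left out, edgeR called none of the 438 miRNAs, and of the members 4 were lower and none higher at an unadjusted p under 0.05, against 17.4% and 15.8% of all miRNAs lower and 18.9% and 16.9% higher without the first and the second cell library. The arm differences of mir-30a and mir-30e then kept their size, 4.11 and 4.29 for mir-30a and 4.04 and 4.00 for mir-30e, with edgeR adjusted p of 0.154 to 0.207. With the first or the second exosome library left out, a single exosome library remained, and the fit held no spread between exosome libraries. Only effect sizes are therefore read from these fits. The arm difference was 5.05 and 3.26 for mir-30a and 4.12 and 3.95 for mir-30e.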

How the data were processed

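Small RNA libraries of 2 MIN6 cell and 2 exosome samples were compared. The authors trimmed adapters, removed rRNA reads, aligned the rest to the genome (mm10 in the submitters' processing notes), miRBase and RNAcentral, and deposited whole-read counts per mature miRNA and RPM values, which equal each count over the sum of its library. Counts per hairpin were deposited for each library, and reads matching several hairpins are counted at each. The mismatches allowed are not given in the sources used here. Deposited counts of each arm in the hairpin files (a cell can hold several joined values) were used for the check of arm shares only.

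Total mature counts were 31409 to 2930217 per library, so that single exosome reads set the precision. miRNAs were kept by filterByExpr (minimum count 10) and tested with edgeR 4.0.16 (glmQLFit, glmQLFTest, TMM). Arms were compared by diffSpliceDGE with the hairpin as gene. Adjustment was by Benjamini-Hochberg, with a threshold of 0.05. Shares carry exact Clopper-Pearson 95% intervals, and family shares were compared by exact permutation. A fold against exosome libraries at or under the floor of 3 counts was the cell mean over the mean of their floors in TMM-normalized CPM. It bounds the fold between group means, under that scaling only. As a self-test, the fits were run on simulated counts with the same dispersion for all miRNAs and both groups. No error rate is taken from that run.

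The text names all 10 members, the other miR-30 miRNAs, miRNAs with the miR-30a-5p seed, the 3 nearest miRNAs to the most abundant member of each arm, and the marker lists as counts. Members, lists and motifs were chosen with earlier results of these data known. Sequences are from RefSeq and gene positions from GENCODE vM21, both on GRCm38, the build of mm10. R 4.3.3, limma 3.58.1, DESeq2 1.42.0, Python 3.11.15, scipy 1.17.1 and matplotlib 3.10.9 were used. Alternatives were RLE, upper quartile and library size scaling, no filter, 10 counts in every library, a replicate block, each library left out, DESeq2, exactTest, limma voom, and other pairings and denominators. When a library was left out the miRNAs of the 4-library filter were kept, a choice made after seeing the data.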

Additional observations from a re-analysis of the deposited data

Results flagged for a closer look

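Reads on the hairpin but on neither annotated arm took a higher share in both exosome libraries than in the cells for mir-30a and mir-30e. For mir-30a they were 5 of 34 hairpin reads (14.7%, exact 95% interval 4.95 to 31.1) and 2 of 16 (12.5%, 1.55 to 38.3) in exosomes, and 1 of 5024 and 1 of 4766 in cells. For mir-30e they were 5 of 34 (14.7%) and 2 of 15 (13.3%, 1.66 to 40.5) in exosomes, and 18 of 7044 and 15 of 6577 in cells. mir-30c-1 had 1 of 37 and 1 of 10 such reads in exosomes and none in cells. The other hairpins of the members had none in exosomes, with 0 of 35 and 0 of 5 for mir-30c-2, 0 of 12 and 0 of 1 for mir-30d, and 0 of 10 for mir-30b in the first library, which had no reads in the second. Over the 6 hairpins that make the members the share was 0.103% and 0.102% in cells and 6.79% and 10.6% in exosomes. Reads matching several hairpins enter these totals at each, as those of miR-30c-5p did at mir-30c-1 and mir-30c-2. Whether the off-arm reads of mir-30a and mir-30e are partly the same reads is unknown, so the pooled shares are approximate. With mir-30f, whose 4 reads in the second exosome library were all off its arm, the share there was 17.6% (9 of 51). Such reads were not particular to miR-30, since among hairpins with at least 20 reads 30.8% and 44.1% had over 10% of them off the arms in the exosome libraries, and 13.3% and 11.9% in the cell libraries. No test was made, and what these reads are was not tested.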

How the results depend on the processing

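Of the single-miRNA and single-hairpin values under the alternatives, 134 kept their direction and side of the threshold, 24 lost the call, 11 gained it and 5 changed sign. With library size alone 30 of all miRNAs were lower, and 2 members lower and 1 (miR-30a-5p, log2 fold change 2.10, edgeR adjusted p = 0.0478) higher. With no filter 202 of 1101 miRNAs were lower (18.3%), and 8 of the 10 members were. miR-30a-5p and miR-30e-5p turned to fitted values of -0.50 and -0.95 (neither passed, and the second rests on exosome counts under the floor). Of 351 hairpins 10 had 5p up (2.85%) and 6 had 3p up (1.71%). Of the miR-30 hairpins 1, mir-30a, had 5p up, since mir-30e had an edgeR adjusted p = 0.0726. With at least 10 counts in every library only 100 miRNAs were tested, of which 37% were higher and 40% lower. Both tested members (miR-30a-3p and miR-30e-3p) were lower. Of the 12 hairpins tested 9 had 5p up (75%) and 2 had 3p up (16.7%), with 0 of miR-30 because none of its pairs was tested. miR-30c-1-3p turned to 0.95 by library size and to 0.34 by upper quartile. With exactTest at a 2-fold change and an unadjusted p under 0.05, 8 members were lower, against 39.5% of all miRNAs. With both 3p arms of miR-30c counted, the 5p share was 27.0% for the family in cells, and for miR-30c 80.1% in cells and 46.2% in exosomes. Without the 5 most abundant miRNAs of each group, the 5p members took 0.393% in cells and 0.144% in exosomes, and the 3p members 1.04% and 0.235%. Leaving out 1 library gave 0 to 124 miRNAs higher and 0 to 168 lower, 0 to 8 members lower, 2 to 28 hairpins with 5p up and 1 to 16 with 3p up, 0 to 2 of the miR-30 hairpins with 5p up, and a mir-30d arm difference of -0.36 to 5.79, the last without the first exosome library, where a single read is left. The upper ends of these leave-out ranges come from fits with a single exosome library, which held no spread between exosome libraries. They are listed as a record of the settings, and no call is drawn from them. Except where stated, the cause of the changes between settings was not tested.

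The replicate numbers pair nothing by the labels, and same-numbered libraries had a correlation of deviations of 0.19. With the replicate block 5 members were lower, against 24.9% of all miRNAs (miR-30c-2-3p had an edgeR adjusted p = 0.0569), and 2 miR-30 hairpins had 5p up, against 15% of all hairpins, of which 6 had 3p up.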
